A study of Mus musculus with 2 samples.

Results

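The genes described here are the aminoacyl-tRNA synthetases together with the enzymes that make serine and pass its carbon to folate, and the transporter that brings large neutral amino acids into cells. The rule picks members by symbol and uses no measured value. It takes every gene whose symbol follows the synthetase pattern (a letter followed by ars and an optional final digit, plus Eprs1, Farsa and Farsb), and 10 further genes, namely Phgdh, Psat1, Psph, Shmt1, Shmt2, Mthfd1, Mthfd1l, Mthfd2, Slc7a5 and Slc3a2. The rule found 47 genes among the 34259 rows of whole-number counts, of which 20 were cytosolic synthetases, 17 mitochondrial synthetases, 8 serine and one-carbon enzymes and 2 transporter subunits.

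The study sequenced total RNA from tumours of 4T1, a mouse mammary carcinoma cell line grown in mice as a model of metastatic breast cancer. The treated group was 1 tumour library made after 3 injections of a protein degrader aimed at an autophagy-related protein. The control group was 1 tumour library labelled as control, with no agent named. The sources used here do not give the degrader's target, the strain, sex and age of the mice, or whether a library pooled tumours. Batch coincided with group (1 for the treated, 2 for the control tumour), and their effects cannot be told apart.

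Synthetases attach each amino acid to its matching tRNA and so supply the ribosome. Most amino acids have separate nuclear genes for the cytosolic enzyme and for the enzyme imported into mitochondria, whereas Gars1 and Kars1 each serve both compartments. Serine is made from a glycolytic intermediate by PHGDH, PSAT1 and PSPH, and the SHMT and MTHFD enzymes move a carbon unit from serine through folate towards purines and thymidylate. The transcription factor ATF4, translated when amino acids run short or the endoplasmic reticulum is stressed, is known to induce many of these genes, and tumour cells often express them strongly.

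The treated library held 3824323 counts and the control library 2252214. Each value below is a count, or a level in counts per 1000000 of the scaled library total (CPM), where a single count was worth 0.259 CPM for the treated and 0.449 CPM for the control tumour. The ratio of a gene is its treated over its control CPM, followed in parentheses by a 95% interval that covers counting error only. With 1 library per group there was no spread between replicates and no test, so each ratio compares these libraries and not the conditions. In bulk tumour RNA, fewer cells of a type and less RNA per cell cannot be told apart. Genes of the carcinoma epithelium were present in both libraries, with the 8 markers listed for it summing to 5059 treated and 4340 control CPM.

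The serine synthesis enzymes, both subunits of the amino acid transporter and most cytosolic synthetases were higher in the treated tumour, while the mitochondrial synthetases lay on both sides of equality. Of the 47 members, 40 averaged 10 CPM or more across the libraries, the minimum for a gene to be counted. Of these 40, 4 were at least 2-fold higher on the scale of log2(CPM + 1), namely Slc3a2, Slc7a5, Psat1 and Farsb, against a background of 4.23% of the 8865 genes measured. Lars2 was the only one at least 2-fold lower, against a background of 2.5%. At least 1.5-fold higher were 11 of the 40, against 12.8% of all genes, and the counting interval lay above a ratio of 1 for 22 members, against 22% of all genes, a share that also depends on how deeply a gene was counted. It lay below 1 for Lars2 alone, against 18.9% of all genes. The median log2 ratio of the 40 members was 0.32, and that of all measured genes was 0.03. A log2 ratio above 0 was found in 30 of the 40 members and in 52.5% of all genes.

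**Figure D1:**
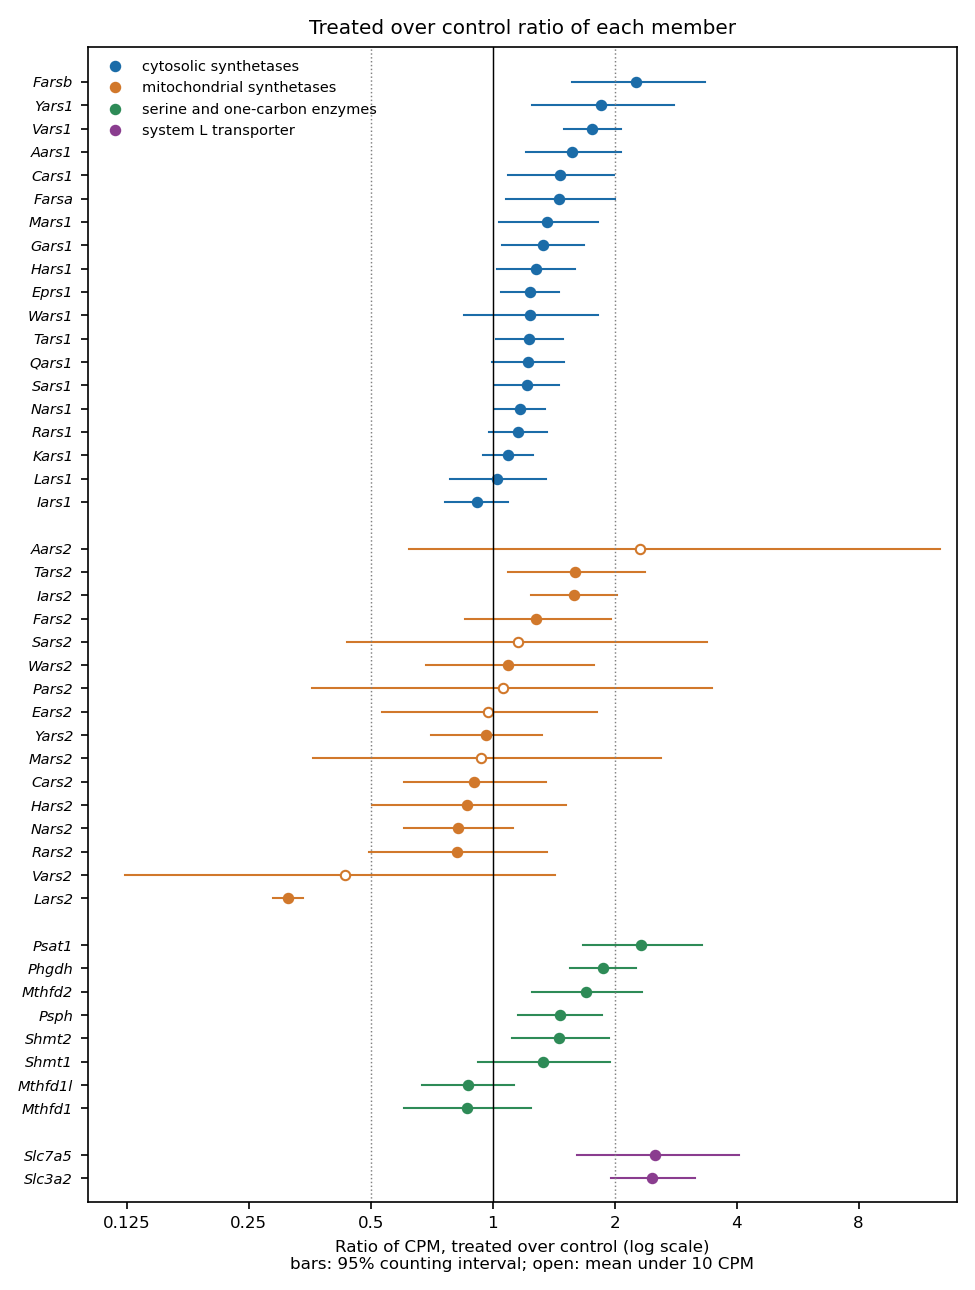
Ratio of CPM in the treated over the control tumour for 45 of the 47 members, on a log axis, with 1 library per group. Bars are 95% counting intervals, dotted lines mark 2-fold, and open points have a mean under 10 CPM; most cytosolic synthetases, 6 of 8 serine and one-carbon enzymes and both transporter subunits have a log2 ratio above 0 and lie to the right of 1, and Lars2 lies far to the left at 0.313.

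All 20 cytosolic synthetase genes passed the minimum, and 18 of them had a log2 ratio above 0, against 52.5% of all genes. Their median log2 ratio was 0.30, with a lowest of -0.13 for Iars1 and a highest of 1.13 for Farsb. The counting interval lay above 1 for 13, against 22% of all genes, and held 1 for the other 7. Such a share also depends on how deeply a gene was counted. Their share of all counts was 0.159% (0.155% to 0.163%) in the treated tumour against 0.126% (0.121% to 0.131%) in the control. The summed ratio, taken on scaled library totals, was 1.24 (1.18 to 1.30).

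Farsb (mm10 chromosome 1, 78417975 to 78488897, minus strand) encodes the beta subunit of the cytosolic phenylalanyl-tRNA synthetase. It had 145 treated and 37 control counts, or 37.5 and 16.6 CPM, a ratio of 2.26 (1.57 to 3.34). Its partner Farsa, the catalytic alpha subunit, had 152 against 60 counts, a ratio of 1.46 (1.08 to 2.00). Both subunits were higher in the treated tumour. The count ratio of Farsb over Farsa was 1.55 times the control value, with an interval of 0.945 to 2.55 that holds 1, so a difference between the subunits was not detectable at this depth.

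Vars1, the valyl enzyme, had 619 against 203 counts, or 160.2 and 91.1 CPM, a ratio of 1.76 (1.50 to 2.07). The tyrosyl enzyme Yars1 had 109 against 34 counts, a ratio of 1.85 (1.25 to 2.80). The alanyl enzyme Aars1 had 210 against 77 counts, a ratio of 1.57 (1.21 to 2.07). These and Farsb were the 4 cytosolic synthetases at least 1.5-fold higher, and none was 1.5-fold lower, where 9.02% of all genes were.

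A further 9 cytosolic genes had intervals above 1 with smaller ratios, from 1.17 for Nars1 to 1.47 for Cars1. Nars1, which charges asparagine, had 596 against 294 counts, or 154 and 132 CPM. Cars1, which charges cysteine, had 163 against 64 counts. At the low end Iars1, the isoleucyl enzyme, had 323 against 204 counts, a ratio of 0.913 (0.764 to 1.09). This interval did not exclude equality. Wars1, the tryptophanyl enzyme known to be induced by interferon-gamma, had 92 against 43 counts, a ratio of 1.23 (0.850 to 1.82).

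In animals 8 of these enzymes, Eprs1, Iars1 and Mars1 among them, are held in a large multi-synthetase complex. Their median log2 ratio was 0.16. The counting interval lay above 1 for 2 of the 8, near the 22% of all genes. These 2 were Eprs1 at 1.23 (1.05 to 1.46) and Mars1 at 1.36 (1.03 to 1.81). The 12 cytosolic genes outside the complex had a median of 0.47. For 11 of them the interval lay above 1, against the same 22% of all genes. The summed ratio was 1.10 (1.03 to 1.17) for the complex and 1.39 (1.30 to 1.48) for the others. All 12 genes outside the complex had a log2 ratio above 0, as did 6 of the 8 inside it, against 52.5% of all genes. These are counts over genes of the same libraries and were not tested. The transcripts of the 3 scaffold proteins that hold the complex together lay on both sides of equality. Aimp1 had 979 against 641 counts, a ratio of 0.881 (0.796 to 0.974), and Eef1e1 had 326 against 218, a ratio of 0.862 (0.724 to 1.03). Aimp2, named here to complete the scaffold, had 375 against 182 counts, a ratio of 1.19 (0.993 to 1.43).

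The medians of the structural classes lay close together. The 10 genes of class I, the enzymes with a Rossmann-type catalytic fold, had a median log2 ratio of 0.29, and the 10 of class II had 0.32. The glutamyl-prolyl enzyme Eprs1 was counted in class I alone. The 13 cytosolic synthetases widely described as ATF4 targets had a median of 0.30, with 10 intervals above 1. The other 7 had a median of 0.28, with 3 above 1, where 22% of all genes had such intervals. Among the other 7 were Farsb and Farsa, at the high end.

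RefSeq promoters of build GRCm38.p6, spanning 250 bases before to 50 bases after a gene's start, were searched for TGATGNAA on either strand, the core of the response element bound by ATF4 with a C/EBP partner. The table matched 36 of the 47 members; those without an entry included Cars1, Nars1, Vars1 and Slc7a5. Matches were found in 5 of the 13 cytosolic synthetases with an entry, in 0 of the 14 mitochondrial synthetases, in 0 of the 8 serine and one-carbon enzymes and in 0 of 1 transporter subunit, against 4.51% of the 27025 genes in the table and 3.97% of its promoters. All 5 were among the 8 matched synthetases described as ATF4 targets, a list drawn from knowledge of this factor and so not independent of the motif. The 48 bases around the first match in each of the 5 are shown because these are the members whose promoters hold the element; each is read on the gene's strand, and capitals mark the match, which reads TTNCATCA where the element lies on the opposite strand.

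Aars1 (chr8:111033710-111033757, plus strand): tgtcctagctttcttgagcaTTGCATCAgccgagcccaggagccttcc
Gars1 (chr6:55037951-55037998, plus strand): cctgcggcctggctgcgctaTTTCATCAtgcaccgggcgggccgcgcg
Iars1 (chr13:49682117-49682164, plus strand): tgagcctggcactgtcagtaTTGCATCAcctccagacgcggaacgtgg
Tars1 (chr15:11399646-11399693, minus strand): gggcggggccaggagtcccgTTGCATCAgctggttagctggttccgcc
Yars1 (chr4:129189886-129189933, plus strand): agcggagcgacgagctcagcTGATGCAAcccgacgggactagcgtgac

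Aars1 held a second match nearer its start. The 5 genes did not share a ratio, with 1.57 for Aars1, 1.33 for Gars1, 0.913 for Iars1, 1.23 for Tars1 and 1.85 for Yars1. Iars1, the lowest cytosolic synthetase, held the same 8 letters as Aars1 and Tars1. Yars1, the highest of the 5, held these letters on the opposite strand. A match describes the letters in this window and is not evidence of binding, and a window without a match says nothing about the factor.

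Of the 17 mitochondrial synthetase genes, 10 passed the minimum. Their median log2 ratio was -0.10, with 4 above 0 and 6 below, where 52.5% of all genes were above 0. Iars2, which charges isoleucine in mitochondria, had 258 against 94 counts, a ratio of 1.58 (1.25 to 2.03). Tars2, the threonyl enzyme, had 105 against 38 counts, a ratio of 1.59 (1.09 to 2.37). For another 7, including Yars2 at 0.961 (0.702 to 1.32) and Nars2 at 0.821 (0.603 to 1.12), the interval held 1. The 7 genes under the minimum (Aars2, Ears2 and Vars2 among them) had between 6 and 37 treated and between 3 and 23 control counts. All of their intervals held 1, so a difference was not detectable for them at this depth.

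Lars2 (mm10 chromosome 9, 123366927 to 123462666, plus strand), the mitochondrial leucyl-tRNA synthetase, stood apart from the rest of the group. Its counts were 844 (treated) and 1557 (control), or 218 and 699 CPM, which made it 3.20-fold lower in the treated tumour (2.94 to 3.48). Ribosomal-RNA-like reads can be counted in this gene, so its counts cannot be taken as synthetase transcript alone, and their part in the result was not tested. Per kilobase of annotated exon, its level was 19.7 treated and 63.0 control CPM, above the highest of the other 16 mitochondrial synthetases, Yars2, at 9.04 and 9.40 CPM per kilobase. Of all mitochondrial synthetase counts it held 46.2% (treated) and 75.5% (control). The summed ratio of the mitochondrial group was 0.510 (0.479 to 0.544) with Lars2 and 1.12 (1.00 to 1.25) without it, which turns the direction of the sum. The median log2 ratio did not turn, and without Lars2 it was -0.06, with 5 of the 9 measured genes below 0.

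The count ratio of a cytosolic gene to its mitochondrial counterpart within a library does not depend on scaling. Among 17 such pairs, 11 had both genes at 10 CPM or more, and in 9 of these 11 the cytosolic gene took a larger share in the treated tumour. Farsa and Farsb, subunits of the same enzyme, were each paired with Fars2. Both pairs are among the 9 and share its counts. The interval of the change excluded 1 for 4 of the 11, in the direction of the cytosolic gene for 3. Yars1 over Yars2 went from 34 against 66 counts in the control to 109 against 110 in the treated tumour, a change of 1.92-fold (1.15 to 3.25). Nars1 over Nars2 changed by 1.42-fold (1.01 to 2.00). The third was Lars1 over Lars2 at 3.29 (2.48 to 4.38), which rests on Lars2. The isoleucyl pair ran the other way, with 204 against 94 counts in the control and 323 against 258 in the treated tumour, a change of 0.577 (0.425 to 0.782). Summed over the groups without Lars2, cytosolic genes held 86.1% of treated and 84.8% of control synthetase counts, and the change of 1.11 (0.985 to 1.25) held 1. Hars1 and Hars2 overlap at their starts, so reads there may be divided between them in a way the sources do not state.

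**Figure D2:**
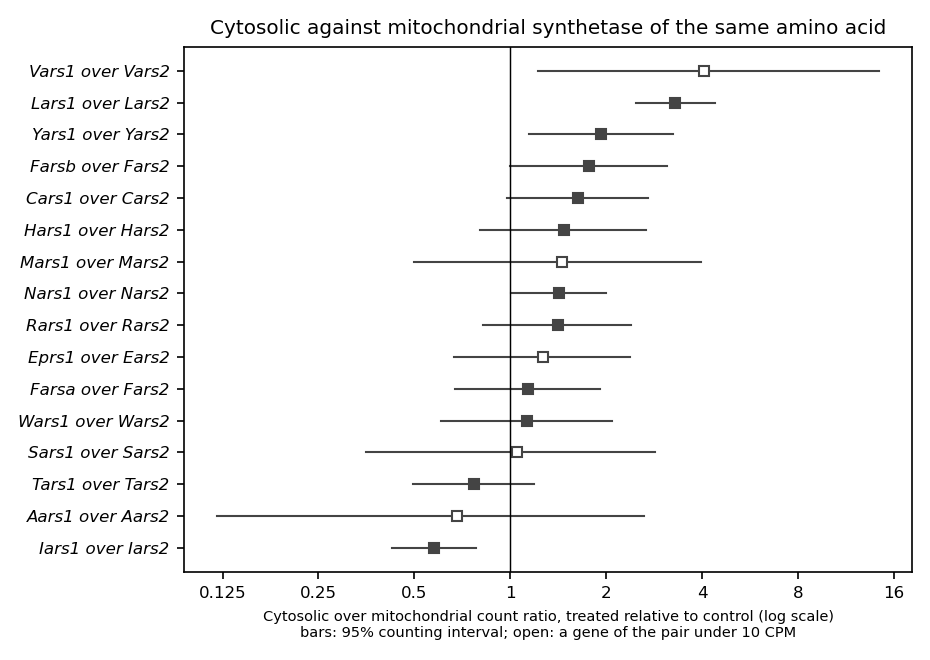
For 16 of the 17 pairs, the count ratio of the cytosolic over the mitochondrial synthetase in the treated tumour relative to that in the control tumour, on a log axis, with 95% counting intervals and open squares where a gene was under 10 CPM. Most pairs lie between 1 and 2 with intervals that hold 1. The leucyl pair at 3.29 and the isoleucyl pair at 0.577 lie on opposite sides. Furthest right is the valyl pair at 4.07 (1.22 to 14.4), an open square because Vars2 averaged under 10 CPM.

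The 3 steps of serine synthesis were all higher in the treated tumour. Psat1 (mm10 chromosome 19, 15904678 to 15947337, minus strand), the aminotransferase of the middle step, had 185 treated and 46 control counts, or 47.9 and 20.6 CPM, a ratio of 2.32 (1.67 to 3.28). Phgdh (chromosome 3, 98313170 to 98339990, minus strand), the dehydrogenase that commits the glycolytic intermediate to serine, had 492 against 152 counts, or 127 and 68.2 CPM, a ratio of 1.87 (1.55 to 2.25). Psph, the phosphatase that releases serine, had 256 against 101 counts, or 66.2 and 45.3 CPM, a ratio of 1.46 (1.16 to 1.86). All 3 intervals lay above 1, against 22% of all genes. Relative to Psph, Psat1 was 1.59 times its control value (1.05 to 2.42), and relative to Phgdh 1.24 times (0.848 to 1.84), so Psat1 and Phgdh could not be ordered.

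Among the 5 folate-linked enzymes the mitochondrial genes Mthfd2 and Shmt2 were higher, and the other 3 had intervals that held 1. Mthfd2, the mitochondrial dehydrogenase and cyclohydrolase known for its expression in embryos and tumours, had 168 against 57 counts, or 43.5 and 25.6 CPM, a ratio of 1.70 (1.25 to 2.34). Shmt2, the mitochondrial hydroxymethyltransferase that splits serine into glycine and a carbon unit, had 190 against 75 counts, or 49.2 and 33.7 CPM, a ratio of 1.46 (1.11 to 1.93). Its cytosolic counterpart Shmt1 had 99 against 43 counts, a ratio of 1.33 (0.919 to 1.95). The Shmt2 over Shmt1 count ratio was 1.10 times its control value (0.684 to 1.76), which holds 1.

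Mthfd1l, which releases formate in mitochondria, had 149 against 99 counts, a ratio of 0.868 (0.669 to 1.13). Mthfd1, the trifunctional cytosolic enzyme that takes formate up again, had 81 against 54 counts, a ratio of 0.865 (0.605 to 1.24). Both lay slightly below equality with intervals that held it. The Mthfd2 over Mthfd1l count ratio was 1.96 times its control value (1.30 to 2.96), and that of Mthfd2 over Mthfd1 was 1.96 times (1.21 to 3.18). The genes Mthfd2 and Mthfd1l of the mitochondrial folate path thus had unequal ratios, beyond counting error. This holds for these genes and not for whole steps of the path. Mthfd2l, a relative of Mthfd2 on the list of further folate genes, ran the other way. It had 197 against 157 counts, or 51.0 and 70.4 CPM, a ratio of 0.724 (0.584 to 0.898). The median log2 ratio of all 8 serine and one-carbon enzymes was 0.54, with 6 of the 8 above 0, against 52.5% of all genes.

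**Figure D3:**
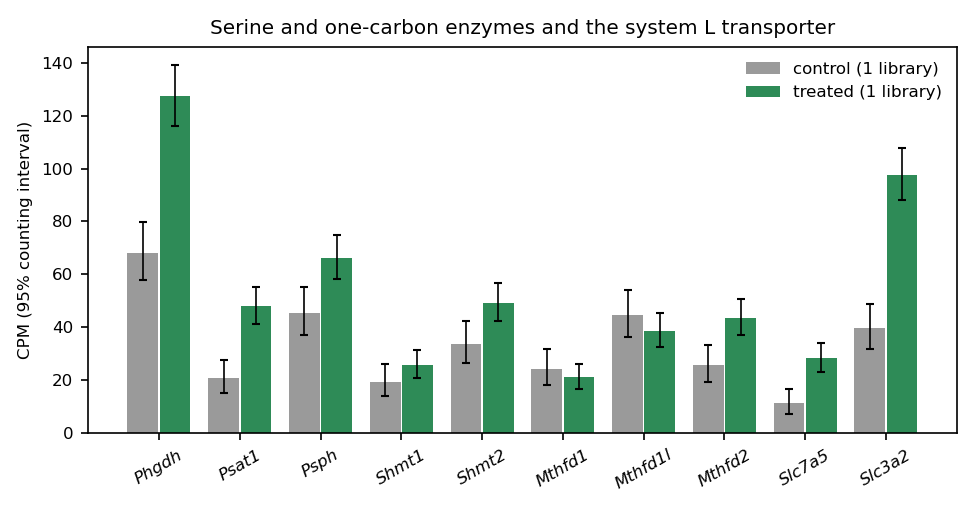
CPM of the 8 serine and one-carbon enzymes and the 2 transporter subunits in the control (grey) and treated (green) tumour, 1 library each, with 95% counting intervals as error bars. The intervals of Shmt1, Mthfd1 and Mthfd1l overlap between the libraries, and those of the other 7 genes do not, with Shmt2 separated by the least.

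The subunits of the transporter were higher in the treated tumour by nearly the same ratio. Slc7a5 (LAT1; mm10 chromosome 8, 121881150 to 121907694, minus strand), the light chain that exchanges leucine and other large neutral amino acids, had 109 against 25 counts, or 28.2 and 11.2 CPM, a ratio of 2.51 (1.62 to 4.05). Slc3a2 (CD98; chromosome 19, 8706882 to 8723369, minus strand), the heavy chain that carries it to the membrane, had 377 against 88 counts, or 97.5 and 39.5 CPM, a ratio of 2.47 (1.95 to 3.15). Slc3a2 also pairs with other light chains. The count ratio of the heavy over the light chain was 0.983 times its control value (0.574 to 1.64).

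**Figure D4:**
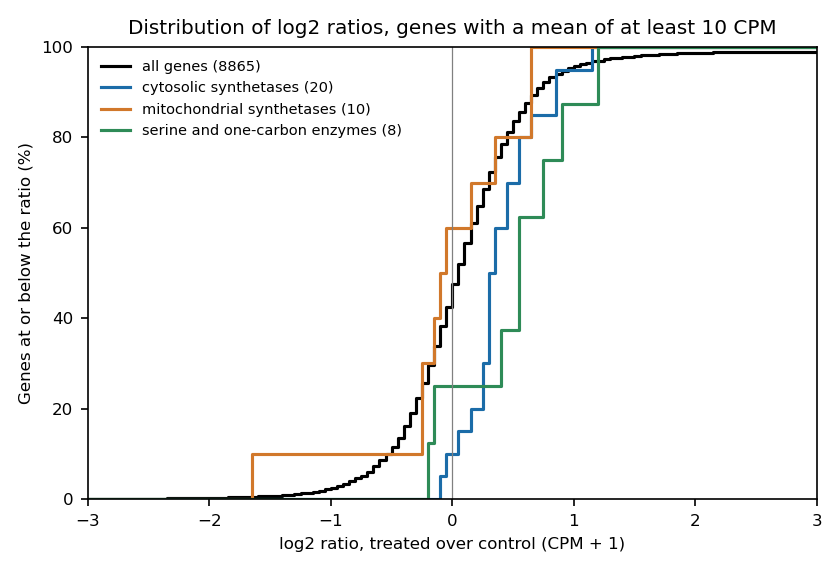
Cumulative share of genes at or below each log2 ratio of treated over control, on the CPM + 1 scale, for all 8865 genes averaging 10 CPM or more and for 3 of the member groups. The curves of the cytosolic synthetases (median 0.30) and of the serine and one-carbon enzymes (0.54) lie to the right of all genes (0.03), and that of the mitochondrial synthetases (-0.10) lies close to it except for Lars2.

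Other genes of these pathways were described from 4 lists. For all 8865 measured genes, the counting interval lay above 1 in 22% and below 1 in 18.9%. The counts of each list are to be read beside these shares. Among 8 measured relatives of the synthetases, tRNA export and editing factors included, the median log2 ratio was 0.01, with 0 intervals above 1 and 3 below. Xpot, which exports tRNA from the nucleus, had 257 against 203 counts, a ratio of 0.730 (0.605 to 0.882). Pstk, a kinase on the route to selenocysteyl-tRNA, had 123 against 97, a ratio of 0.731 (0.556 to 0.964).

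Of 27 further folate and methionine-cycle genes, 17 were measured, with a median log2 ratio of 0.07. For 4 the interval lay above 1 and for 3 below, near the shares of all genes. Atic, which uses formyl-folate in the last steps of purine synthesis, had 359 against 102 counts, a ratio of 2.03 (1.62 to 2.55). It was the only one of the 17 at least 2-fold higher, where 4.23% of all genes were. Dld, the dehydrogenase subunit shared by the glycine cleavage system and pyruvate dehydrogenase, had 591 against 504 counts, a ratio of 0.676 (0.599 to 0.763). Mat2b, a regulator of S-adenosylmethionine synthesis, had 540 against 342 counts, a ratio of 0.910 (0.794 to 1.05). Fpgs, which adds glutamates to folates to keep them in the cell, had 56 against 54 counts, a ratio of 0.598 (0.404 to 0.886).

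Of 18 other amino acid transporters, 11 were measured, with a median log2 ratio of 0.25, 1 interval above 1 and 3 below. Slc38a2, a glutamine transporter, had 857 against 506 counts, a ratio of 0.977 (0.874 to 1.09). Slc1a5, another glutamine transporter, had 162 against 78 counts, a ratio of 1.20 (0.909 to 1.59). Slc36a4, of the family of small amino acid transporters, had 35 against 45 counts, making it 2.23-fold lower (1.40 to 3.57). Slc7a7, another light chain of Slc3a2, had 28 against 32 counts, making it 1.98-fold lower (1.16 to 3.42). Both subunits of the LAT1 complex thus had ratios above that of every measured transporter on this list. Counting error does not settle this order, since Slc7a1, at 1.69 (1.07 to 2.74), had an interval that overlapped those of both subunits. Slc7a8, left out here by the minimum of 10 CPM, had a higher ratio of 3.11 (1.18 to 10.4).

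The list for the ATF4 axis mixes regulators with genes that ATF4 induces. Of its 18 genes 16 were measured, with a median log2 ratio of 0.18, 6 intervals above 1 and 3 below. Asns, the asparagine synthetase induced by ATF4, had 187 against 39 counts, a ratio of 2.76 (1.95 to 4.01). Atf5, a related factor translated under stress, had 121 against 36, a ratio of 1.94 (1.33 to 2.90). The transcript of Atf4 itself had 736 against 580 counts, a ratio of 0.732 (0.655 to 0.817), and that of Nupr1 780 against 506, a ratio of 0.889 (0.794 to 0.996). Atf4 is controlled mainly at translation, which RNA counts do not measure.

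Markers of other cell types also differed between the tumours. For comparison, a level raised 2-fold or more in the treated tumour was found in 4.23% of the 8865 measured genes. A level reduced by this factor or more was found in 2.5% of them, and a counting interval above 1 in 22%. The epidermal marker list, 9 genes with a row of 10 listed, summed to 2781 treated and 156 control CPM, with all 9 at least 2-fold higher and none at 0. The neutrophil list summed to 2753 and 958 CPM, with all 6 measured of 8 at least 2-fold higher and none at 0. Red cell markers summed to 518 and 162 CPM, muscle markers to 51.0 and 21.5 CPM and macrophage markers to 1014.5 and 749.8 CPM, with 3 of 3, 2 of 2 and 3 of 8 measured at least 2-fold higher. On the lower side, plasma cell markers summed to 3.88 and 151 CPM, adipocyte markers to 93.1 and 576 CPM and endothelial markers to 122 and 243 CPM, with 3 of 3, 2 of 2 and 2 of 5 measured at least 2-fold lower. Fibroblast markers summed to 1596 and 1877 CPM and T cell markers to 25.1 and 19.7 CPM, with 1 of 5 and 0 of 1 measured at least 2-fold higher and none lower. Among the 8 carcinoma epithelium markers none was 2-fold different, and 6 had intervals above 1, Epcam among them at 1.54 (1.43 to 1.66). The part of these cell types in the ratios of the synthetases, the serine enzymes and the transporter was not tested.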

How the data were processed

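The authors deposited, in 34290 rows, values per gene that are whole-number counts except in 31 autophagy rows at the top of the table. Because 30 of those rows hold values that are not whole, the deposited columns as a whole could only be treated as estimated counts. The 31 rows, none of them a member, were left out and nothing was rounded. Reads were aligned to mm10, per the submitters' processing notes, from libraries made from 1.5 µg of RNA; the sources used here do not give the aligner, the counting tool or the handling of strand. Each column was tied to its sample by the sheet deposited for that sample; 7 columns were not tied and not used.

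Scaling used the trimmed mean of M values (30% and 5% trimmed; factors 1.01 and 0.989), written in Python 3.11.15 with scipy 1.17.1 and tested on simulated data. Log2 ratios used a pseudocount of 1 CPM, which understates differences of low genes; single ratios used none. Ratio intervals are exact conditional binomial, shares Clopper-Pearson, levels exact Poisson, all at 95% and for counting error only. Gene positions and exon lengths are from GENCODE M21 (GRCm38, the same assembly as mm10).

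Every member entered the counts and medians; some single values are not reported here. Counts were given for those past 2-fold, the serine enzymes and pairs the text names, and from each list of other pathway genes (not the cell type markers) the 2 most abundant and the 2 with the largest absolute ratio. Aimp2, Mthfd2l, Slc7a1, and examples of single members within a group, were chosen after their values were seen. Members, lists and tests were chosen with earlier results of these data known. Alternatives were 3 other scalings, pseudocounts of 0.5 and 5, minimum means of 0, 1 and 50 CPM, a 1.5-fold threshold, the second sheet and leaving out Lars2.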

Additional observations from a re-analysis of the deposited data

How the results depend on the processing

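The settings varied were 3 other scalings, 2 other pseudocounts, 3 other minimum means and the second deposited sheet. Over these, the median log2 ratio of the cytosolic synthetases stayed between 0.28 and 0.33. The median of the serine and one-carbon enzymes stayed between 0.49 and 0.57 except with a minimum of 50 CPM. There it was 0.71, over Phgdh and Psph alone. That of the mitochondrial synthetases stayed between -0.11 and -0.06 except with a minimum of 50 CPM, where it was -0.51 over Lars2 and Iars2 alone; without Lars2 it was -0.06. The number of members at least 2-fold higher was 4, became 1 (Slc3a2) with a minimum of 50 CPM, since fewer genes were counted, and 11 with a 1.5-fold threshold. It was 3 with a pseudocount of 5, where Farsb had a log2 ratio of 0.98. The number at least 2-fold lower, which is Lars2 itself, was 1 under each setting run for it; leaving out Lars2 was not run for this count. None of the 240 log2 ratios of single members recomputed under other scalings, pseudocounts or the second sheet left its counting interval. No paired analysis was possible because each group has 1 library. Depth limits the mitochondrial group most, since 7 of its 17 genes fell under 10 CPM.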

Other observations

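A few genes of the same pathways stayed under the minimum of 10 CPM but differed beyond counting error. They were chosen after their values were seen. Rows under the minimum numbered 5 for the synthetase relatives, 10 for the folate list, 7 for the transporters and 3 for the ATF4 axis. The share of all genes under the minimum with such intervals was not computed, so these genes cannot be set against a background. Chac1, a glutathione-degrading enzyme induced by ATF4 and CHOP, had 46 treated and 3 control counts, a ratio of 8.84 (2.84 to 44.4). Aarsd1, an alanyl-tRNA editing protein related to the synthetases, had 33 against 6, a ratio of 3.17 (1.31 to 9.26). Slc7a8 (LAT2), a light chain that like Slc7a5 pairs with Slc3a2, had 27 against 5, a ratio of 3.11 (1.18 to 10.4). Cth, which makes cysteine from cystathionine, had 50 against 13, a ratio of 2.22 (1.19 to 4.45). Slc19a1, the reduced folate carrier, had 37 against 10, a ratio of 2.13 (1.04 to 4.81). Aldh1l2, the mitochondrial formyl-folate dehydrogenase, ran the other way with 2 against 11 counts, a ratio of 0.105 (0.0113 to 0.480).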
